A study of Arabidopsis thaliana with 9 samples.

Results

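Tetraspanins are small proteins that cross the membrane several times and gather other membrane proteins into patches at the plasma membrane and on endosomes and vesicles. In Arabidopsis the family is known from organ patterning and growth, from plasmodesmata, from gametes, and from the vesicles that plant cells release. The genes described here are the 10 of 15 measured TET genes with the highest mean log2 signal over 9 arrays, taken from probe sets annotated to a single gene with a TET symbol. TET6 and TET8 were to be kept whatever their signal, because an earlier analysis of these arrays had called them, and both were also within the 10 by signal. The mean signals, from 9.94 for TET3 to 3.74 for TET14, therefore chose the members. The nearest gene left out was TET5, at 3.69. TET4, TET12, TET13 and TET16 were lower still, and TET17 and TRN2, also called TET1, were not analysed here.

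The arrays measured RNA from the terminal 0.5 mm of primary roots of Arabidopsis thaliana seedlings, 4 days after germination, with 3 biological replicates per genotype. The alleles cna-2, phb-13 and phv-11 together made the triple mutant, and lie in 3 genes for HD-ZIP III transcription factors, and the quadruple mutant carried rev-6 in addition. The control was wild type of the line Col er-2, and the mutants' labels do not list er-2. Quadruple homozygotes came from a segregating population and were picked by their radial cotyledons, and their labels do not settle every allele, with phv-11 or phv-6 for PHV and phb-13 or, in titles, phb1 for PHB. No label tells whether replicates came from separate plates or sowings, so the p-values measure the spread between these samples.

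The log2 signal of PHV, mutated in both mutants, was 4.71 to 4.77 on the triple-mutant arrays and 5.03 to 5.22 on the quadruple-mutant arrays, against 7.14 to 7.28 in wild type. Array medians were 5.92 to 5.95 in the triple mutant, 5.91 to 5.95 in the quadruple mutant and 5.79 to 5.89 in wild type. The 18 hybridization control probe sets averaged 10.16 to 10.29 on the triple-mutant arrays, 9.94 to 10.02 on the quadruple-mutant arrays and 9.83 to 10.07 on the wild-type arrays. These controls were highest on the triple-mutant arrays, while the array medians of the mutants overlapped. The difference between the 3′ and 5′ probe sets of GAPDH, a measure of RNA and labelling quality, was 1.59 to 2.34 in the triple mutant, 1.98 to 3.27 in the quadruple mutant and 1.97 to 2.81 in wild type, and these ranges overlapped. The same difference for actin was 5.22 to 5.33 in the triple mutant, 5.11 to 5.79 in the quadruple mutant and 4.14 to 5.44 in wild type, where replicate 3, at 4.14, stood below the other 8 arrays. Of the tissue markers set for the root tip, the stem-cell niche genes AGL42 and BBM and the root-hair expansin gene EXPA7 were measured. Across the 9 arrays their log2 signals were 5.09 to 6.76, 7.68 to 8.38 and 3.85 to 4.14. Markers of the root cap, the ground tissue and the shoot were not analysed here.

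Each of the 15 TET genes had 1 listed probe set. Signals of different probe sets depend on their probes, so the genes are compared between genotypes and not with each other. In a bulk sample, fewer cells of a type and less RNA per cell cannot be told apart. TET3, TET10, TET7, TET8 and TET2 lay above the array median on all 9 arrays. TET6 lay below it on 6 arrays, which were those of the quadruple mutant and wild type. TET11, TET15, TET9 and TET14 lay below it on all 9 arrays, at 3.55 to 4.52, near the low end of arrays whose lowest signals were 2.45 to 2.59. No detection call was used, so small differences in these 4 genes concern dim probe sets. The SD between replicate arrays, pooled over the genotypes, was 0.060 to 0.227 for the 10 genes with a median of 0.140, and the median over all probe sets was 0.143.

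**Figure D1:**
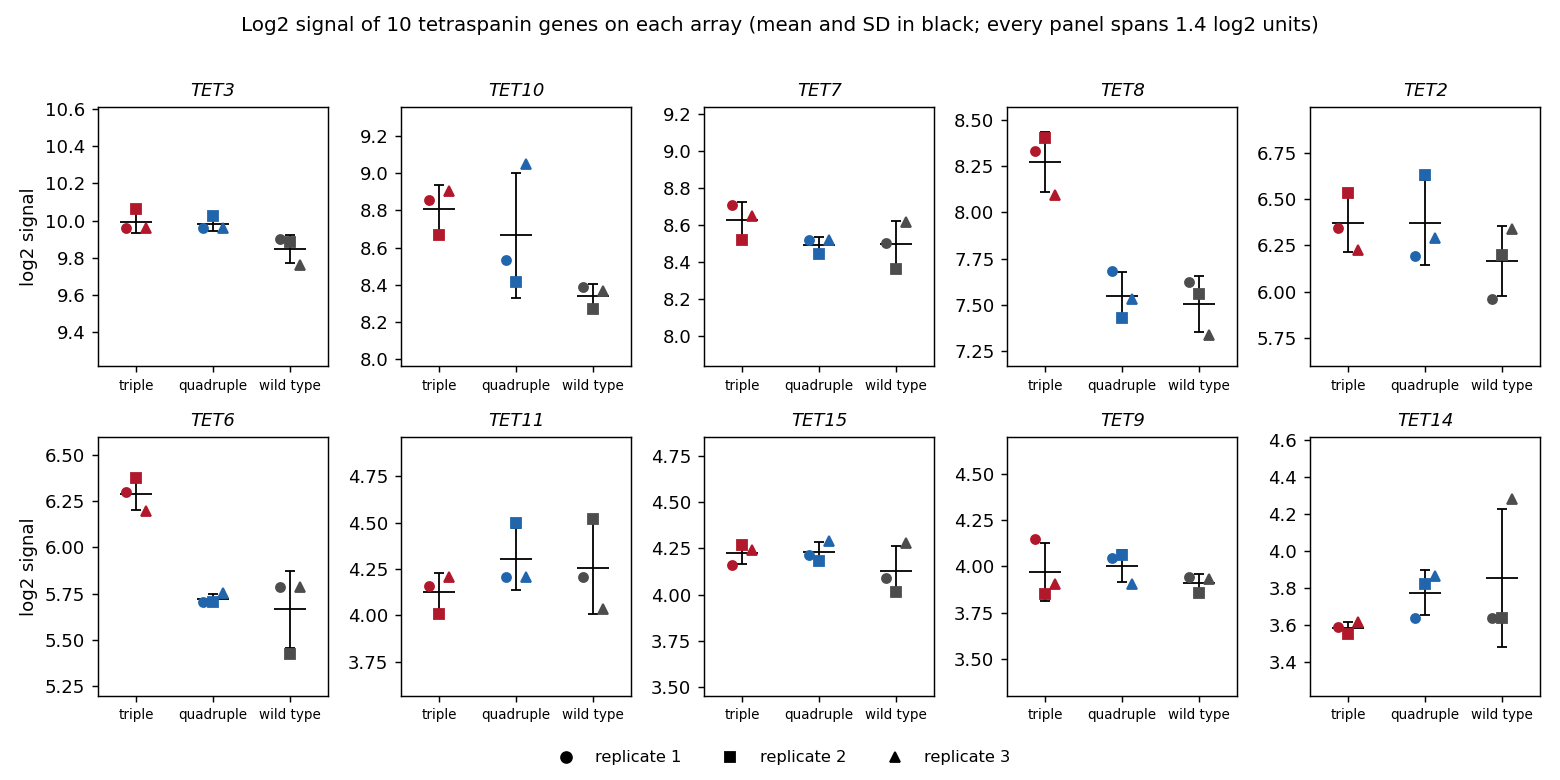
Log2 signal (y axis) of each of the 10 tetraspanin genes on each array, by genotype (x axis: triple mutant, quadruple mutant, wild type). Symbols mark the replicate number, and black bars give the mean and SD of 3 arrays. TET8 and TET6 lie apart in the triple mutant, and TET10 is lowest in wild type.

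TET8 and TET6 were high in the triple mutant and lay close together in the quadruple mutant and wild type. TET8 (AT2G23810) encodes a tetraspanin used as a marker of extracellular vesicles in Arabidopsis. Its log2 signal was 8.33, 8.40 and 8.09 in the triple mutant, 7.68, 7.43 and 7.53 in the quadruple mutant, and 7.62, 7.56 and 7.34 in wild type. The lowest triple-mutant array lay above the 6 other arrays, and the quadruple-mutant and wild-type arrays overlapped. In the triple mutant TET8 stood 1.70-fold above wild type, a log2 change of 0.77 (SE 0.12, 95% interval 0.51 to 1.03). Relative to the triple mutant, the quadruple mutant stood at a log2 change of -0.72 (SE 0.12, 95% interval -0.98 to -0.46).

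TET6 (AT3G12090) encodes a tetraspanin that acts redundantly with TET5 to restrict organ growth. Its log2 signal was 6.30, 6.37 and 6.19 in the triple mutant, 5.70, 5.70 and 5.75 in the quadruple mutant, and 5.79, 5.42 and 5.79 in wild type. As for TET8, the 3 triple-mutant arrays lay above the other 6. In the triple mutant TET6 stood 1.54-fold above wild type, a log2 change of 0.62 (SE 0.11, 95% interval 0.38 to 0.87), and at -0.57 in the quadruple relative to the triple mutant (SE 0.11, 95% interval -0.81 to -0.33). TET5, the partner gene, was dim, with a triple-mutant range of 3.57 to 4.07, a quadruple-mutant range of 3.59 to 3.75 and a wild-type range of 3.58 to 3.68, which overlap.

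These changes of TET8 and TET6 are a description, with no test, because both genes were to be kept for them whatever their signal. All 3 triple-mutant arrays lay above the other 6 arrays in 4.37% of all probe sets (and below them in 2.59%), and in TET8 and TET6 among the 10 genes. The hybridization controls were also highest on the triple-mutant arrays. Of the tissue markers, AGL42 lay lower in the triple mutant than in wild type without overlap, by a log2 change of -0.63 (adjusted p = 0.0737 in limma, or 0.00516 with the replicate number as a block). EXPA7, dim at 3.85 to 4.14, lay below wild type without overlap in both mutants, at -0.18 in the triple mutant (adjusted p = 0.345 in limma) and -0.21 in the quadruple mutant (adjusted p = 0.501 in limma). In the triple mutant 7.06% of all probe sets lay below wild type without overlap, and the share for the quadruple mutant was not counted. BBM overlapped between triple mutant and wild type, at a log2 change of 0.15 (adjusted p = 0.526 in limma). The marker lists were set with earlier results of these data known, so the adjusted p-values of these markers are no independent support. The part of the controls and of these markers in the TET8 and TET6 values was not tested. TET8 lost its call without triple-mutant replicate 1 in both contrasts and without quadruple-mutant replicate 2 in that between the mutants. TET6 lost its call without triple-mutant replicate 1 or 2 in both contrasts, and without any 1 quadruple-mutant replicate in that between the mutants. Both genes were to be kept for their changes on these same arrays, so neither these losses nor the ranges that follow are support for the changes. Leaving out each array in turn gave TET8 log2 changes of 0.68 to 0.86 in the triple mutant against wild type and -0.82 to -0.66 in the quadruple against the triple mutant, and gave TET6 changes of 0.50 to 0.68 and of -0.61 to -0.53.

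The difference between the quadruple mutant and wild type is the sum of the 2 changes for which TET8 and TET6 were to be kept. It too is therefore a description, with no test. TET8 averaged 7.55 ± 0.13 in the quadruple mutant and 7.51 ± 0.15 in wild type (SD, n = 3 each), a log2 change of 0.04 (SE 0.12, 95% interval -0.22 to 0.30). TET6 averaged 5.72 ± 0.03 in the quadruple mutant and 5.66 ± 0.21 in wild type (SD, n = 3 each), a log2 change of 0.06 (SE 0.11, 95% interval -0.19 to 0.30). Both signs turned negative after quantile normalization and after median centring.

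**Figure D2:**
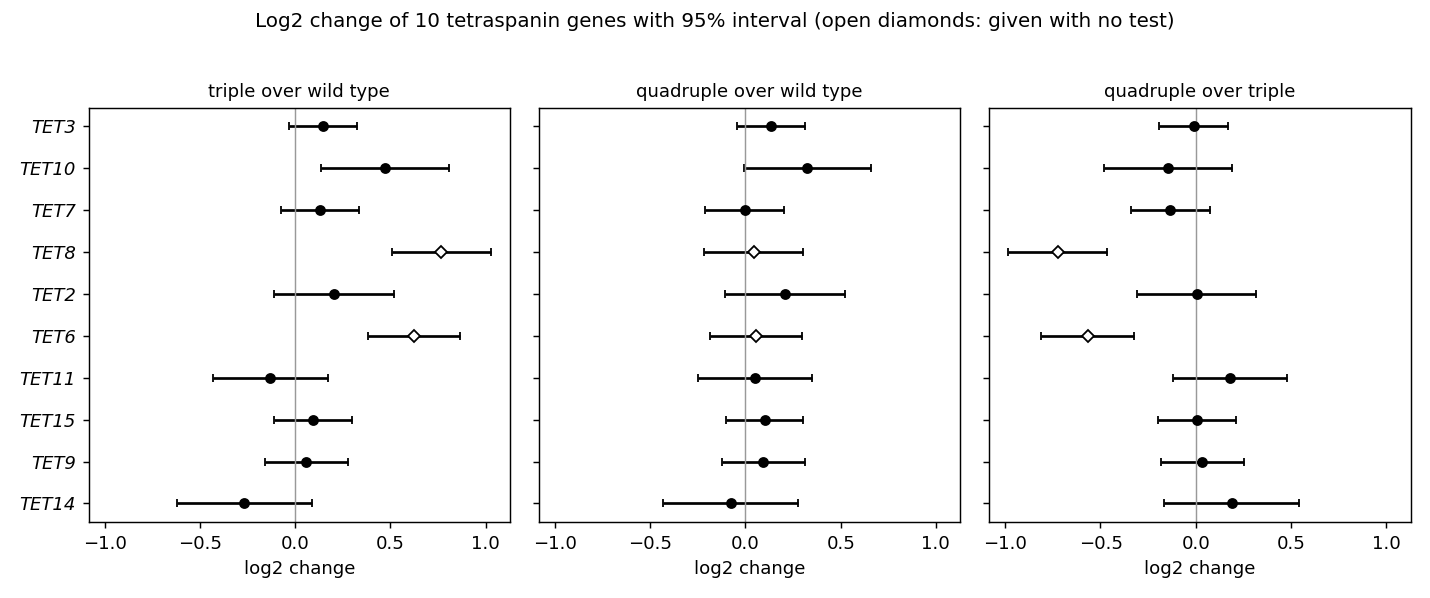
Log2 change (x axis) with its 95% interval from limma for the 10 tetraspanin genes (y axis) in the 3 comparisons. Open diamonds are the changes of TET8 and TET6, from -0.72 to 0.77, which are given with no test, and the intervals of the filled points include 0 except for TET10 in the triple mutant over wild type.

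Among the other 8 genes, none passed between the triple mutant and wild type with limma at an adjusted p under 0.05, and 1 of the 8, TET10, had an unadjusted p under that threshold. Across all probe sets 1.73% passed (1.48% upward and 0.246% downward), and 13.5% lay under the threshold before adjustment. With TET8 and TET6, which were to be kept for their changes in this contrast, 2 of the 10 passed. At the standard errors of the 10 genes, 0.08 to 0.16, a log2 change had to reach 0.37 to 0.74 in size to pass, which is 1.30- to 1.67-fold. The median log2 change of the 8 was 0.11, with 6 of 8 above 0, and over all probe sets the median was -0.02, with 45.5% above 0. After median centring, which moves all genes alike, the median over all probe sets was -0.12 with 24.9% above 0, and that of the 8 was 0.0112, with 4 of 8 above 0.

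TET10 (AT1G63260) was the member next to TET8 and TET6 in the size of its change. Its log2 signal was 8.86, 8.67 and 8.91 in the triple mutant, 8.53, 8.41 and 9.05 in the quadruple mutant, and 8.39, 8.27 and 8.36 in wild type. All 6 mutant arrays lay above the 3 wild-type arrays. The triple mutant was 1.39-fold above wild type, a log2 change of 0.47 (SE 0.15, 95% interval 0.14 to 0.81, adjusted p = 0.188 in limma). Same-numbered arrays of these genotypes deviated together, and the difference between them was 0.47, 0.40 and 0.54 for replicates 1, 2 and 3. When the number entered limma as a block, the adjusted p was 0.0498, in a fit that called 5.06% of all probe sets. That fit used the numbers of all 9 arrays, those of the quadruple mutant included. The adjusted p ran from 0.0498 to 0.241 over the 6 alternative settings and from 0.0568 to 0.429 when single arrays were left out.

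TET10 was 1.25-fold above wild type in the quadruple mutant, a log2 change of 0.33 (SE 0.15, 95% interval -0.01 to 0.66, adjusted p = 0.539 in limma). Replicate 3 of the quadruple mutant gave the highest TET10 signal of the 9 arrays, and without it the log2 change was 0.13. Between the quadruple and the triple mutant the log2 change of TET10 was -0.15 (SE 0.15, adjusted p = 0.886 in limma), or -0.34 without that array. In order of level, the triple mutant stood above the quadruple mutant and wild type came last, and the quadruple mutant's SD of 0.34 spanned the triple-mutant mean.

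TET3 (AT3G45600), a tetraspanin found at plasmodesmata, had a log2 signal of 9.96, 10.06 and 9.96 in the triple mutant, 9.96, 10.03 and 9.96 in the quadruple mutant, and 9.90, 9.89 and 9.76 in wild type. Both mutants lay above wild type on every array, and the mutants overlapped. The differences were small, with a log2 change of 0.15 in the triple mutant (SE 0.08, adjusted p = 0.469 in limma) and 0.13 in the quadruple mutant (SE 0.08, adjusted p = 0.626 in limma). TET3 was above wild type on every mutant array after quantile normalization too, but overlapped it after median centring, where the changes were 0.04 and 0.05.

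TET7 and TET2, also above the array medians, did not pass in any comparison. TET7 (AT4G28050) had a log2 signal of 8.71, 8.52 and 8.65 in the triple mutant, 8.52, 8.44 and 8.52 in the quadruple mutant, and 8.50, 8.36 and 8.62 in wild type. The quadruple-mutant arrays lay just below the triple-mutant arrays, by a log2 change of -0.13 (SE 0.09, adjusted p = 0.751 in limma), and overlapped them after either rescaling. TET2 (AT2G19580) had a log2 signal of 6.35, 6.53 and 6.23 in the triple mutant, 6.20, 6.63 and 6.29 in the quadruple mutant, and 5.96, 6.20 and 6.34 in wild type. Its genotypes overlapped, with log2 changes of 0.20 in the triple mutant (SE 0.14, adjusted p = 0.568 in limma) and 0.21 in the quadruple mutant (SE 0.14, adjusted p = 0.655 in limma) against wild type.

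None of the 4 dim members passed in any comparison. TET9 (AT4G30430), like TET8 found on extracellular vesicles, ranged from 3.85 to 4.15 in the triple mutant, 3.90 to 4.06 in the quadruple mutant and 3.85 to 3.94 in wild type. Its log2 change was 0.06 in the triple mutant (SE 0.10, 95% interval -0.16 to 0.28, adjusted p = 0.839 in limma). After median centring the sign turned, at -0.0427. TET11 (AT1G18520), known from pollen, ranged from 4.01 to 4.21 in the triple mutant, 4.21 to 4.50 in the quadruple mutant and 4.03 to 4.52 in wild type, and changed by -0.13 on the log2 scale between triple mutant and wild type (SE 0.13, adjusted p = 0.718 in limma). TET15 (AT5G57810) ranged from 4.16 to 4.27 in the triple mutant, 4.18 to 4.29 in the quadruple mutant and 4.02 to 4.28 in wild type, so the genotypes overlapped. TET14 (AT2G01960) had a log2 signal of 3.59, 3.55 and 3.61 in the triple mutant, 3.64, 3.82 and 3.86 in the quadruple mutant, and 3.64, 3.64 and 4.28 in wild type. Its triple-mutant arrays lay below the other 6, by margins under the spread in wild type, and the log2 change of -0.27 against wild type (SE 0.16, adjusted p = 0.502 in limma) was -0.05 without wild-type replicate 3.

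Counted by overlap alone, 3 of these 8 genes had triple-mutant and wild-type arrays that did not overlap, with TET3 and TET10 higher and TET14 lower. The same was true of 7.89% of all probe sets in the upward and 7.06% in the downward direction. After median centring TET3 overlapped, and after quantile normalization TET14 did. Among quadruple-mutant arrays 2 of the 8, TET3 and TET10, lay above wild type without overlap, as did 7.61% of all probe sets. After median centring both overlapped, and 29.6% of all probe sets had a change above 0 in this comparison, against 51.4% as deposited. After quantile normalization TET9 also lay above wild type without overlap, at a log2 change of 0.15.

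Between the quadruple mutant and wild type 0 of the same 8 genes passed with limma, and 0 had an unadjusted p under 0.05. Across all probe sets 0.044% passed and 9.39% had an unadjusted p under that value. A log2 change had to reach 0.62 to 1.22 in size to pass here, more than in the other comparisons. The log2 changes of the 8 genes lay between -0.08 for TET14 and 0.33 for TET10, with a median of 0.10, against 0.0049 over all probe sets.

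Between the quadruple and the triple mutant TET8 and TET6 were the 2 of 10 genes that passed, both lower. They were to be kept for their changes in this contrast too. In all 2.22% of probe sets passed, 0.554% upward and 1.66% downward, and 10.9% had an unadjusted p under 0.05. With limma 0 of the other 8 passed, and 0 had such an unadjusted p. Their log2 changes lay between -0.15 for TET10 and 0.19 for TET14, with a median of 0.0053, against 0.03 over all probe sets. In 2 of the 8 the arrays did not overlap, TET14 higher and TET7 lower, against 8.93% and 7.61% of all probe sets. In the same comparison the niche markers AGL42 and BBM moved the other way, higher in the quadruple mutant by 1.33 (adjusted p = 0.00149 in limma) and 0.45 (adjusted p = 0.0353 in limma) on the log2 scale. BBM lost this call in 5 of 9 fits without 1 array, those without any 1 quadruple-mutant replicate or triple-mutant replicate 1 or 2, with adjusted p up to 0.142. The summed linear signal of these 2 measured markers of the 5 on the list was 402.4 to 435 on the quadruple-mutant arrays, 249 to 293 on the triple-mutant arrays and 258 to 299 in wild type. A linear sum is weighted to the brighter probe set, here BBM, with a wild-type mean of 7.75 against 5.89 for AGL42. The sums of the triple mutant and wild type overlapped, while AGL42 by itself lay lower in the triple mutant, by the log2 change given above. The marker lists were set with earlier results of these data known, so the adjusted p-values of AGL42 and BBM are no independent support. The part of these markers in the tetraspanin values was not tested.

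**Figure D3:**
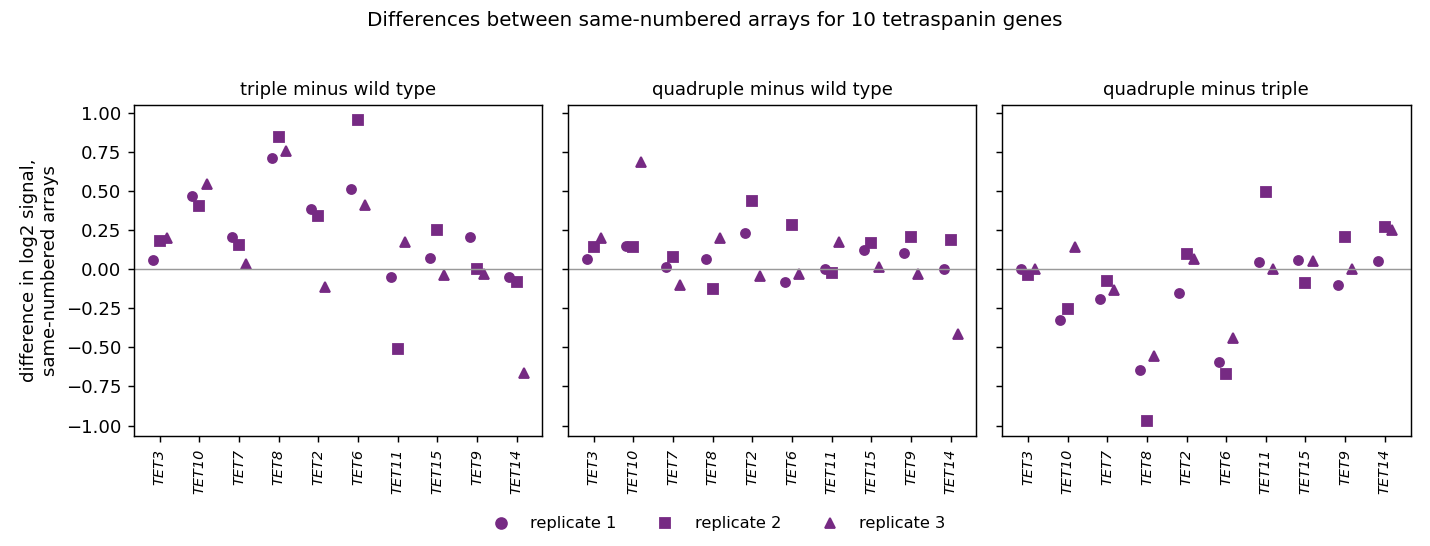
Difference in log2 signal (y axis) between arrays of the same replicate number, for the 10 tetraspanin genes (x axis) in the 3 comparisons. For TET8, TET6, TET10, TET3 and TET7 the 3 differences between triple mutant and wild type are all above 0, and for TET10 in the quadruple mutant 1 difference, 0.69, stands above the others.

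By correlation over the 9 arrays, many other genes lay closer to TET8 and to TET6 than these lay to each other. All of these correlations are a description, with no test. Both genes were kept for changes on these same arrays, which shape the correlations, and a minimum SD can favour genes that differ between genotypes. The log2 signals of TET8 and TET6 correlated at 0.89, over arrays that fall into genotype clusters. Among 1137 other single-gene probe sets with an SD of at least 0.3 over the arrays, TET6 ranked 76 by correlation with TET8, and TET8 ranked 56 by correlation with TET6. The 5 closest to TET8 were AT1G79420, AT4G09760, AT2G27080, AT4G30470 and AT5G65660, with correlations of 0.97 to 0.99. AT1G79420, the closest, averaged 5.86 ± 0.11 in the triple mutant, 4.78 ± 0.15 in the quadruple mutant and 4.81 ± 0.12 in wild type (SD, n = 3 each). The 5 closest to TET6 were AT2G39400, STR18, AT5G57340, AT3G19010 and AT4G28703, with correlations of 0.96 to 0.98. STR18, a sulfurtransferase gene, averaged 10.76 ± 0.19 in the triple mutant, 10.25 ± 0.08 in the quadruple mutant and 10.14 ± 0.15 in wild type (SD, n = 3 each). No gene was among the 5 closest to both.

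**Figure D4:**
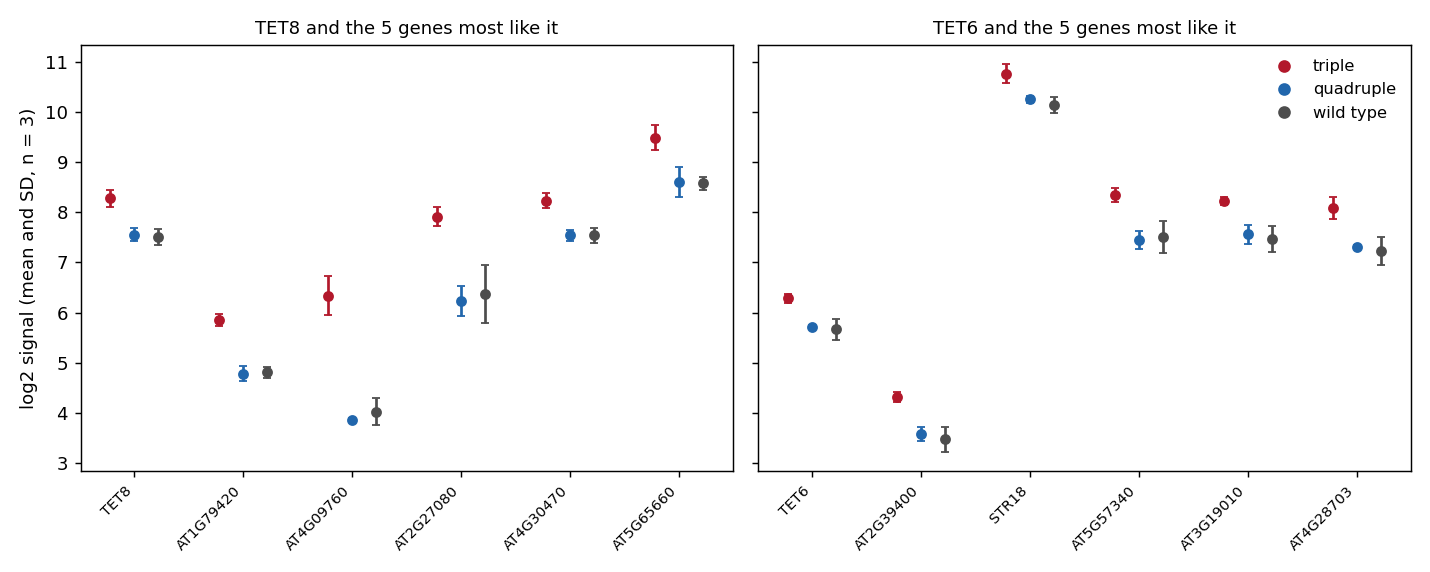
Log2 signal (y axis, mean and SD of 3 arrays) by genotype for TET8 and TET6 and the 5 genes (x axis) whose signal correlated most with each over the 9 arrays. Each gene was highest in the triple mutant, which the choice by correlation with TET8 or TET6 favoured in advance. Levels of different genes are not compared.

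A list of 20 vesicle and secretion genes, set as the surroundings of TET8 and TET9, had 3 measured members. These were ARA6, a Rab GTPase of endosomes, AT3G58510, listed as RH11, and AT2G42520, listed as RH37. With 3 of 20 measured, the list as a whole is not described. None of the 3 passed with limma in any of the 3 comparisons, and 0 had an unadjusted p under 0.05. ARA6 averaged 9.42 ± 0.20 in the triple mutant, 9.40 ± 0.06 in the quadruple mutant and 9.33 ± 0.23 in wild type (SD, n = 3 each), and stood at 0.09 on the log2 scale between triple mutant and wild type (SE 0.13, adjusted p = 0.812 in limma). The log2 changes of the 3 genes lay between -0.07 and 0.09 in the triple mutant and between -0.20 and 0.07 in the quadruple mutant against wild type, and between -0.16 and -0.02 in the quadruple against the triple mutant. The 12 plasmodesmal genes and the 8 genes of the TORNADO and auxin carrier list were not analysed here.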

How the data were processed

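RNA of about 200 root tips per replicate, 250 ng per array, was labelled with biotin and hybridized to 1-colour Affymetrix ATH1 arrays, per the labels' protocols. The deposited values are log2 signals, with 1 value for each probe set on each array. Affymetrix Expression Console, RMA and limma are named in the submitters' processing notes, without versions. RMA subtracts background, brings the arrays to a common distribution and combines the probes of each set, so changes are relative to other transcripts. Precision is limited by the number of arrays.

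Of 22810 probe sets, 64 Affymetrix controls were left out and 22746 tested. The platform annotation lists 13513 with 1 gene, 503 with several, and does not list 8730; current symbols came from RefSeq (TAIR10.1) by Entrez identifier, where 77 found no match. A mean per genotype over 9 arrays was fitted with limma 3.58.1 (R 4.3.3), leaving 6 residual degrees of freedom, with eBayes and with p-values adjusted by Benjamini-Hochberg over all probe sets; calls needed adjusted p under 0.05. The fit was tested on simulated data. Intervals use the moderated standard error. Members and lists were chosen with earlier results of these data known. The named genes were the 10 members, called list genes, and the 5 genes most correlated with TET8 and with TET6. Same-numbered arrays were read as paired where all 3 correlations of their deviations from genotype means were over 0.1. These were 0.273, 0.330 and 0.408 between triple mutant and wild type, and 0.217, 0.340 and 0.515 between the mutants. Between quadruple mutant and wild type they were 0.043, 0.342 and 0.360, so those arrays were not read as paired. No label states a pairing, and the same numbers cannot be pairs in some contrasts and not in another, so this reading is not settled. The block fit took the numbers of all 9 arrays as pairs, those of the quadruple mutant included. The main counts come from the fit without the block. Alternatives were quantile normalization, median centring, the replicate block, a robust fit with a variance trend, leaving out probe sets whose mean log2 value was under 5, the 6 arrays compared alone, and leaving out each array.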

Additional observations from a re-analysis of the deposited data

How the results depend on the processing

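Over the alternatives, 400 of 438 values of the 10 tetraspanins kept their direction and their side of the threshold. Many of these directions could not change, so that share is no measure of robustness. The log2 change is the same by construction with the block, the robust fit, the minimum of 5 and the 6 arrays compared. It is also the same without an array outside the contrast. The count of tetraspanins called in the triple mutant against wild type was 2, or 1 in the fit of the 6 arrays compared, where TET6 lost its call, and 0 to 2 when single arrays were left out. Without triple-mutant replicate 1 neither TET8 nor TET6 was called, and without triple-mutant replicate 2 TET6 was not. In the quadruple against the triple mutant the count was 2, and 0 to 2 with single arrays left out; it was 0 without quadruple-mutant replicate 2 or triple-mutant replicate 1, and 1 without quadruple-mutant replicate 1 or 3 or triple-mutant replicate 2. Between quadruple mutant and wild type it was 0 in all of these fits. With the replicate block TET10 was called in the triple mutant (log2 change 0.47), and no other tetraspanin call changed; the numbers of the quadruple mutant and wild type were not read as pairs, and there the block moved the count over all probe sets to 67, against 10 without it. Of the 6 measured genes on the other lists, 0 were called in the triple mutant against wild type, and 1, AGL42, lower, with the block, quantile normalization or median centring. Between quadruple mutant and wild type 0 were called, 2 with the block, and 0 to 1 with single arrays left out. In the quadruple against the triple mutant 2 were called, and 1 to 2 with single arrays left out. Over all probe sets the count in the triple mutant against wild type was 393, against 1152 with the block and 167 in the 6 arrays compared, and 182 to 647 with single arrays left out. Between quadruple mutant and wild type it was 10, against 5 in the 6 arrays compared, and 4 to 59. In the quadruple against the triple mutant it was 504, against 1114 with the block, and 220 to 610.

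The signs that turned all belong to changes that were not called. After median centring the triple-mutant changes of TET15 and TET9 were -0.0067 and -0.0427. TET8, TET6 and TET11 then stood at -0.0447, -0.0327 and -0.0390 between quadruple mutant and wild type, and TET3 at 0.0012 between the mutants. After quantile normalization TET8 and TET6 stood at -0.0239 and -0.0243 between quadruple mutant and wild type. With single arrays left out, changes ran in the triple mutant against wild type from -0.24 to 0.0043 for TET11 and -0.0318 to 0.12 for TET9. Between quadruple mutant and wild type they ran from -0.0685 to 0.0581 for TET7, -0.0414 to 0.10 for TET8, -0.0648 to 0.12 for TET6, -0.0605 to 0.18 for TET11 and -0.19 to 0.14 for TET14. Between the mutants they ran from -0.0328 to 0.0240 for TET3, -0.13 to 0.0934 for TET2, -0.0261 to 0.0299 for TET15 and -0.0235 to 0.12 for TET9. The causes were not tested. The same 10 genes were chosen after either rescaling. Each gene had 1 listed probe set, so no other probe set could be tried, and the minimum of 5 left TET11, TET15, TET9 and TET14 out.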
